A study of Ovis aries with 6 samples.

Results

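All 6 libraries of a series on the pituitary of sheep (Ovis aries) fell into 2 sets of 3 by how much hormone messenger RNA they held, and the 2 sets are described here gene by gene. The sets follow the summed counts of PRL, GH and CGA, which encode prolactin, growth hormone and the common alpha chain of the glycoprotein hormones. In the libraries named C1, C2 and C3 these genes took 0.0137, 0.00461 and 0.00492% of all gene counts, and in C4, C5 and C6 they took 14.1, 29.5 and 4.68%. Each library is labelled as pituitary tissue. By its design text, the study set 3 healthy sheep of the small-tailed Han breed, with high reproduction, against 3 healthy Wadi sheep with low reproduction. The labels tie no library to a breed, an animal, an age, a sex or a treatment, so the sets are sets of libraries and not breeds. Full-length complementary DNA was made from total RNA with an amplification step and read on a nanopore sequencer. The libraries held between 1981644 (C6) and 2732911 (C2) gene counts. Levels are given as CPM, a gene's count divided by the library's total gene count and scaled to 1000000. In these units 3 counts corresponded to 1.10 to 1.51 CPM. Values for C1 to C3 or C4 to C6 stand in library order. CPM is not divided by gene length, so levels are compared between libraries and not between genes. Because the sets were chosen from measured levels of the same libraries, every difference between them is a description and carries no test.

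The anterior pituitary makes prolactin, growth hormone, the gonadotropins, thyrotropin and corticotropin in separate cell types, and those hormone messages are usually among its most abundant. The granule neurons of the cerebellum, the small excitatory neurons that fill its inner cortex, are known in rodents for CBLN1, a secreted organizer of synapses, for GABRA6, a subunit of the GABA type A receptor, and for FAT2, a giant cadherin. Purkinje cells, the inhibitory output neurons of the same cortex, are known for PCP2, CALB1 and LHX1.

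The tissue label was compared with these markers. PRL stood at 120997, 246764 and 41508 CPM in C4 to C6, while C1 held 99.9 CPM and C2 and C3 held 29.6 and 28.0 CPM. GH stood at 16344, 34210.4 and 3818 CPM in C4 to C6 and at no more than 7.29 CPM in C1 to C3, and CGA at 3687, 14364 and 1478 CPM in C4 to C6 and at no more than 29.6 CPM in C1 to C3. All 3 hormone genes thus separated the sets, which is how the sets were drawn. GH can be duplicated in sheep, and reads of the copies may not be told apart, so that gene's count is uncertain. The granule neuron markers ran the other way. They did not enter the choice of sets but were picked with earlier results of these data known. Their direction is therefore no independent support. CBLN1 stood at 1701, 1445 and 1394 CPM in C1 to C3 and 1.31, 0.413 and 14.1 CPM in C4 to C6, GABRA6 at 241, 205 and 207 CPM in C1 to C3 and 0.438, 2.07 and 0.505 CPM in C4 to C6. FAT2 was measured at 512, 532 and 508 CPM in C1 to C3 and 6.57, 4.55 and 14.1 CPM in C4 to C6. No library of C4 to C6 reached the lowest of C1 to C3 in any of these 3 genes. The same held for 31.7% of all named genes with at least 60 counts. POU1F1 and TBX19, transcription factors that define hormone cell lineages of the pituitary, had no count in C1, C2 or C3, which allows levels of up to 1.10 to 1.29 CPM there. These 2 genes were named after their values were seen. PRL and CGA were thus counted in C1, C2 and C3, at levels far below those of C4 to C6, and these 2 lineage factors were at 0. The libraries are called by their names below. In RNA from whole tissue, fewer cells of a type and less RNA per cell cannot be told apart.

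**Figure D1:**
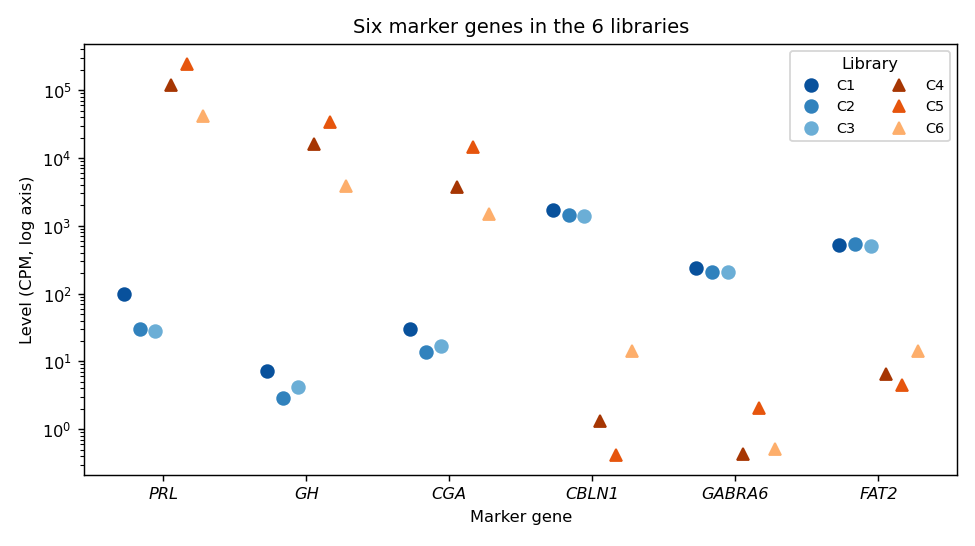
Levels of 6 marker genes (CPM, log axis) in each of the 6 libraries, with circles for C1 to C3 and triangles for C4 to C6. PRL, GH and CGA were higher in every library of C4 to C6, and CBLN1, GABRA6 and FAT2 were higher in every library of C1 to C3.

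The libraries of C1 to C3 also resembled each other more than those of C4 to C6 did. Over the 10133 named genes with at least 60 counts, out of 21457 named genes and 26067 features, Spearman's rho across genes was 0.959 to 0.974 within C1 to C3, 0.739 to 0.857 within C4 to C6, and 0.579 to 0.644 over the 9 pairs between sets. These coefficients are across genes, which are not independent replicates, and they have no p. The 11324 named genes under the minimum, 3466 of them at 0 in every library, are not part of the counts below.

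A gene was said to separate the sets when its gap ratio, the lowest CPM of the higher set over the highest CPM of the lower set, was at least 2. For the call, counts under 3 in the lower set were taken as 3. By this measure 1303 genes (12.9% of those tested) were higher in C1 to C3 and 948 (9.36%) were higher in C4 to C6, so that 22.2% separated the sets in either direction. The sets did not overlap, at any gap, in 31.7% of genes with the higher values in C1 to C3 and in 27.8% with the higher values in C4 to C6. Wide gaps were more frequent on the side of C1 to C3. A gap of at least 4 was found for 512 genes (5.05%) there and for 265 genes (2.62%) on the side of C4 to C6. A gap of at least 10 was found for 152 genes (1.5%) toward C1 to C3 and for 36 genes (0.355%) toward C4 to C6, and a gap of at least 30 for 38 genes (0.375%) and 6 genes (0.0592%). At the threshold, ASAP1 had a gap of 2.0003 and PWWP3A of 1.9996 toward C1 to C3, and SSR1 had a gap of 2.0004 and SSR2 of 1.9998 toward C4 to C6. The split depends on the scale. Of all genes that separated the sets, 57.9% were higher in C1 to C3 by CPM, but 45.7% after scaling by edgeR TMM factors, 43.0% by DESeq2 size factors, 44.9% with the hormone genes left out of the totals, and 25.2% in the authors' TPM. The median log2 ratio of the middle libraries over all genes tested, C1 to C3 over C4 to C6, was 0.06 by CPM, -0.15 by TMM, -0.21 by DESeq2 size factors, -0.20 without the hormone genes and -0.51 in TPM. Counts of list members below are by CPM, with the counts on other scales for most of the lists where these differ. The background differs by scale too. Of the 10133 genes tested, 1266 were higher in C4 to C6 by TMM, 1342 by DESeq2 size factors, 1285 without the hormone genes and 2361 in TPM. Those higher in C1 to C3 numbered 1065, 1012, 1049 and 795, in the same order. The lists were written with earlier results of these data known.

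**Figure D2:**
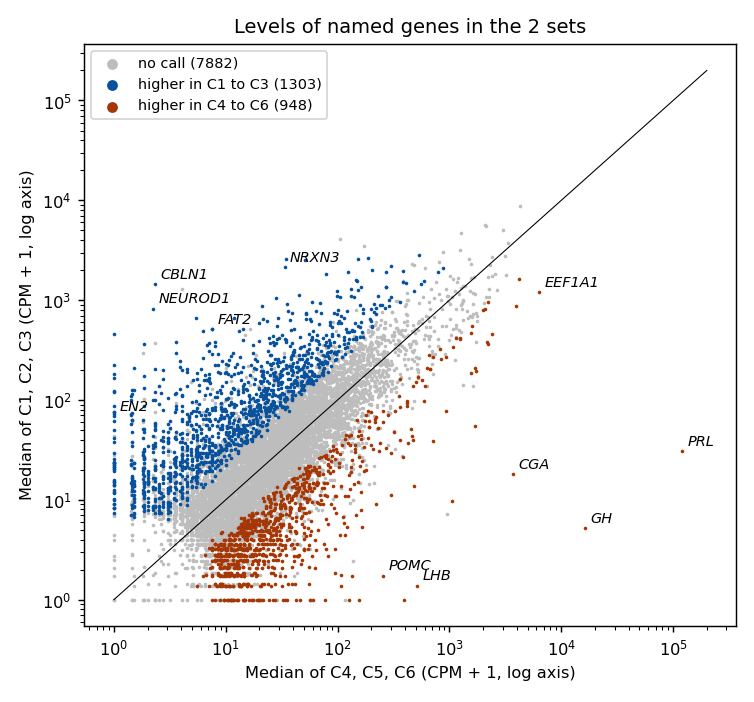
Median CPM plus 1 of C1, C2 and C3 against that of C4, C5 and C6 for the 10133 genes tested, both on log axes, with the diagonal as a line of equal level. The 1303 genes higher in C1 to C3 lie above it and the 948 higher in C4 to C6 below it, with PRL and GH at the far right.

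The 2 groups of genes also took different shares of the libraries. Genes higher in C1 to C3 made up 26.0, 23.2 and 21.7% of the counts of C1, C2 and C3 and 4.10, 3.53 and 4.14% of those of C4, C5 and C6. Genes higher in C4 to C6 made up 1.78, 2.08 and 2.44% in C1 to C3 and 24.7, 40.9 and 13.3% in C4 to C6. Without the 7 hormone genes the latter shares were 10.4, 10.9 and 8.59%, so the spread between C4, C5 and C6 was mostly in the hormone genes.

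Among genes known from cerebellar granule neurons, 16 of the 17 tested were higher in C1 to C3 and none in C4 to C6. PAX6 was the exception. Of the 20 genes listed, NEUROD2, GABRD and BARHL1 had too few counts to be tested. At least 10 counts were reached by 17, 17 and 19 of the 20 in C1 to C3 and by 6, 5 and 11 in C4 to C6. A gene could pass the minimum through C1 to C3 alone, so the tally is no independent support. NEUROD1, a transcription factor that drives the granule neuron fate in mice, had the widest gap. It stood at 819, 880.4 and 581 CPM in C1 to C3 and 1.75, 1.24 and 1.01 CPM in C4 to C6, and the gap was 332-fold (95% interval 129 to 1219.9). CBLN3, which is secreted together with CBLN1, stood at 288, 295 and 422 CPM in C1 to C3 and 2.63, 2.07 and 4.54 CPM in C4 to C6, a gap of 63.4-fold (95% interval 33.2 to 139). SLC17A7, a transporter that loads glutamate into synaptic vesicles, stood at 367, 322 and 359 CPM in C1 to C3 and 0.875, 0 and 6.06 CPM in C4 to C6. Each of these genes was higher in the lowest library of C1 to C3 than in the highest of C4 to C6 by more than 50 times. RELN, a secreted glycoprotein of granule neurons, was present on both sides, at 1113, 918 and 940.7 CPM in C1 to C3 and 68.3, 52.5 and 289 CPM in C4 to C6, with C6 nearest to the other set and a gap of 3.18-fold (95% interval 2.90 to 3.49). PAX6, a transcription factor of granule neuron precursors, stood at 10.3, 4.76 and 11.4 CPM in C1 to C3 and 0, 0.413 and 2.52 CPM in C4 to C6 and missed the threshold at 1.89-fold, and it was named as the exception after its values were seen. The median log2 ratio of the 17 genes was 5.78, against 0.06 over all genes tested.

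Purkinje cell genes gave 9 of 13 higher in C1 to C3, or 6 in TPM, and none in C4 to C6. PCP2, a regulator of G protein signalling that is named after this cell type, stood at 199, 182 and 162 CPM in C1 to C3 and 0, 0 and 1.01 CPM in C4 to C6, and the gap was 160.5-fold (95% interval 44.2 to 1329). LHX1, a LIM homeodomain factor, stood at 164, 174 and 148 CPM in C1 to C3 and 0, 0 and 1.51 CPM in C4 to C6, a gap of 97.7-fold (95% interval 33.2 to 476), and PPP1R17, a phosphatase inhibitor that Purkinje cells phosphorylate in response to cyclic GMP, stood at 388, 377 and 243 CPM in C1 to C3 and 2.63, 3.31 and 1.01 CPM in C4 to C6, a gap of 73.4-fold (95% interval 37.0 to 171). PCP2 and LHX1 had no count in C4 or C5 and 2 or 3 counts in C6, so those ratios rest on few counts. PVALB, the calcium buffer parvalbumin, stood at 172, 176 and 140.4 CPM in C1 to C3 and 0.875, 0.413 and 3.53 CPM in C4 to C6, a gap of 39.7-fold (95% interval 19.1 to 99.5). ALDOC, an aldolase found in bands of Purkinje cells and in astrocytes, had its C4 to C6 values widely apart, at 46.0, 50.4 and 772 CPM in C4 to C6, against 2498, 2522 and 3181.9 CPM in C1 to C3.

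The other cell types of the cerebellar cortex had shorter lists. Of 4 tested interneuron genes 2 were higher in C1 to C3. SLC6A5, the glycine transporter of inhibitory neurons, stood at 21.01, 29.3 and 22.3 CPM in C1 to C3 and 0, 1.24 and 0 CPM in C4 to C6. NXPH1, a secreted ligand of neurexins, stood at 7.29, 12.8 and 10.6 CPM in C1 to C3 and 0.438, 0.827 and 2.52 CPM in C4 to C6, a gap of 2.89-fold (95% interval 1.02 to 10.0). Of 6 tested genes of Bergmann glia, the radial astrocytes of this cortex, FABP7, a fatty acid binding protein, was the 1 that passed, at 32.6, 42.8 and 64.7 CPM in C1 to C3 and 5.69, 4.96 and 10.6 CPM in C4 to C6. SLC1A3, a glial glutamate transporter, stood at 201, 209.7 and 256 CPM in C1 to C3 and 6.57, 9.09 and 105.5 CPM in C4 to C6 and missed the threshold at 1.90-fold, with C6 the closest library. The share of all genes tested higher in C1 to C3 was 12.9%. With C6 left out, 4 of the 6 Bergmann glia genes separated the sets. Of all 10133 genes tested, 1820 were then higher in C1 to C3 and 1203 in C4 and C5. In TPM 1 of the 4 interneuron genes and none of the Bergmann glia genes were higher in C1 to C3. The number over all genes tested was 795 in TPM.

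Genes that mark regions of the brain were mostly too low to be tested. Of 16 forebrain genes 2 had enough counts, and they went in opposite directions. NEUROD6, a neuronal transcription factor, stood at 87.0, 102 and 73.8 CPM in C1 to C3, with no count in C4 to C6, a gap of at least 48.7-fold. SIX3, a homeodomain factor of the anterior forebrain and of the pituitary, stood at 105.5, 76.5 and 11.6 CPM in C4 to C6 and 0.429, 0 and 0 CPM in C1 to C3, a gap of 27.1-fold (95% interval 4.40 to 1115). Of 20 genes of midbrain, hindbrain and spinal cord 2 had enough counts. EN2, the engrailed factor of the midbrain and cerebellum, stood at 68.2, 67.0 and 74.9 CPM in C1 to C3, with no count in C4 to C6, a gap of at least 44.2-fold. Of 12 measured hypothalamic neurohormone genes 2 were tested. TRH, the precursor of thyrotropin-releasing hormone, had no count in C4 to C6 and its lowest level in the other set was 93.5 CPM, a gap of at least 61.7-fold, and TAC1 stood at 3.86, 3.29 and 3.78 CPM in C1 to C3 and 5.25, 35.5 and 1.51 CPM in C4 to C6 with its highest level in C5. In pineal genes LHX4, which is also a pituitary factor, was the 1 of 8 that could be tested, and of 10 lymphocyte genes 1 could be.

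Genes of the synapse were higher in C1 to C3 in part. Synaptic vesicle and fusion genes gave 11 of 16 higher in C1 to C3 and none in C4 to C6, although 9 remained by TMM, by DESeq2 size factors or without the hormone genes, and 6 in TPM. DNM1, the dynamin that retrieves vesicles, stood at 458, 313 and 371 CPM in C1 to C3 and 6.13, 3.72 and 12.1 CPM in C4 to C6, a gap of 25.8-fold (95% interval 17.2 to 40.5). SV2B, a vesicle membrane protein, was measured at 175, 151 and 156 CPM in C1 to C3 and 8.32, 5.79 and 5.55 CPM in C4 to C6, a gap of 18.1-fold (95% interval 11.5 to 30.4). UNC13C, a vesicle priming factor, was lower in C4 to C6 but present there, at 1421, 1101 and 999 CPM in C1 to C3 and 183, 129 and 132 CPM in C4 to C6. In these 3 genes every library of C1 to C3 lay above every library of C4 to C6, as in 31.7% of all genes tested. Adhesion and scaffold genes of the synapse gave 10 of 16 higher in C1 to C3. NRXN3, a presynaptic neurexin, stood at 3123, 2147 and 1878 CPM in C1 to C3 and 23.2, 32.7 and 34.3 CPM in C4 to C6, a gap of 54.7-fold (95% interval 43.1 to 70.6). DLGAP3, a postsynaptic scaffold, stood at 32.6, 47.2 and 36.3 CPM in C1 to C3 and 1.31, 0.413 and 2.52 CPM in C4 to C6, a gap of 12.9-fold (95% interval 5.30 to 40.9). The 1 member in the other direction was DLG3, a scaffold also found in epithelia, at 10.5, 20.3 and 8.07 CPM in C4 to C6 and 2.14, 2.93 and 3.03 CPM in C1 to C3, a gap of 2.67-fold (95% interval 1.08 to 7.20), named after its values were seen.

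Genes of neurotransmitter receptors were in large part higher in C1 to C3. Of 16 tested glutamate receptor genes 9 were higher in C1 to C3 and 1 in C4 to C6. GRM4, the metabotropic receptor of granule neuron terminals, stood at 192, 108 and 103 CPM in C1 to C3 and 0.438, 0.413 and 0 CPM in C4 to C6, and the gap of 236-fold (95% interval 42.0 to 9355) rests on 1 count in each of C4 and C5. GRIN2A, a subunit of NMDA receptors, stood at 224, 159 and 133 CPM in C1 to C3 and 3.50, 5.37 and 6.06 CPM in C4 to C6, a gap of 22.0-fold (95% interval 12.4 to 43.0). GRIA4 and GRIK2, subunits of AMPA and kainate receptors, were expressed in both sets. GRIA4 stood at 1363, 1280.0 and 1157 CPM in C1 to C3 and 138, 97.5 and 131 CPM in C4 to C6, a gap of 8.39-fold (95% interval 7.47 to 9.45). GRIK2 stood at 1718, 1516 and 1247 CPM in C1 to C3 and 529, 381 and 232 CPM in C4 to C6, a gap of 2.36-fold (95% interval 2.21 to 2.52), so the sets lay closer for the kainate receptor. The member in the other direction was GRM8, at 7.88, 12.8 and 8.07 CPM in C4 to C6 and 3.00, 3.66 and 3.78 CPM in C1 to C3, a gap of 2.08-fold (95% interval 0.911 to 5.05) whose interval includes 1, and it too was named after its values were seen. Of 11 tested GABA and glycine receptor genes 7 were higher in C1 to C3 and none in C4 to C6. GLRB, the anchor subunit of glycine receptors, stood at 79.3, 62.6 and 78.3 CPM in C1 to C3 and 1.75, 0.827 and 4.04 CPM in C4 to C6, a gap of 15.5-fold (95% interval 7.69 to 36.5). GABBR2, a subunit of the GABA type B receptor, stood at 244, 239.7 and 224 CPM in C1 to C3 and 23.2, 21.9 and 22.2 CPM in C4 to C6, with nearly the same level in all 3 libraries of a set and a gap of 9.66-fold (95% interval 7.28 to 13.04). GABRB2, a subunit of GABA type A receptors, had a gap of 7.34-fold. SLC32A1, which loads GABA and glycine into vesicles, stood at 60.5, 84.5 and 74.2 CPM in C1 to C3 and 0.438, 0 and 0 CPM in C4 to C6, a gap of 138-fold (95% interval 24.4 to 5494).

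Ion channel genes gave 19 of 23 higher in C1 to C3 and none in C4 to C6. KCNC1, a potassium channel of fast-spiking neurons, stood at 136, 162 and 196 CPM in C1 to C3 and 1.75, 0.413 and 2.02 CPM in C4 to C6, a gap of 67.3-fold (95% interval 26.0 to 249). KCNK9, a leak channel of granule neurons, stood at 81.5, 75.0 and 68.1 CPM in C1 to C3 and 0, 0 and 0.505 CPM in C4 to C6, a gap of 135-fold (95% interval 23.9 to 5360.4). KCNK10, a related leak channel, reached 82.3, 71.7 and 60.2 CPM in C1 to C3 and 0.438, 0.413 and 0 CPM in C4 to C6, a gap of 137-fold (95% interval 24.3 to 5463). KCNK9 and KCNK10 had at most 1 count in any library of C4 to C6, and their intervals are wide. KCND2 and its partner KCNIP4, which form a rapidly inactivating potassium channel, had more counts on both sides. KCND2 stood at 3308, 1905 and 1908 CPM in C1 to C3 and 114, 213 and 123 CPM in C4 to C6, a gap of 8.95-fold (95% interval 8.17 to 9.82). KCNIP4 was measured at 1351, 1097 and 978 CPM in C1 to C3 and 103, 98.4 and 77.7 CPM in C4 to C6, a gap of 9.47-fold (95% interval 8.28 to 10.9), and the intervals of these gaps overlap.

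Splicing factors of neurons gave 9 of 15 higher in C1 to C3. RBFOX3, the antigen known as NeuN, stood at 843, 509 and 465 CPM in C1 to C3 and 13.1, 6.61 and 4.54 CPM in C4 to C6, a gap of 35.4-fold (95% interval 24.7 to 52.7). RBFOX1, a related factor, stood at 4787, 2546 and 2611 CPM in C1 to C3 and 165, 118 and 151 CPM in C4 to C6, a gap of 15.4-fold (95% interval 13.9 to 17.1). CELF5, another RNA-binding protein, stood at 70.3, 72.1 and 49.9 CPM in C1 to C3 and 0.438, 0.413 and 0 CPM in C4 to C6, a gap of 114-fold (95% interval 20.1 to 4541). The 1 member of the list that was higher in C4 to C6 was PTBP1, a splicing repressor that neurons switch off in mice, at 15.3, 17.4 and 17.2 CPM in C4 to C6 and 0.858, 0.366 and 1.14 CPM in C1 to C3, a gap of 13.5-fold (95% interval 4.25 to 68.6), named after its values were seen. General neuron genes gave 7 of 12 higher in C1 to C3, with ENO2, the neuronal enolase, at 2567, 2690.2 and 2326 CPM in C1 to C3 and 33.7, 19.4 and 60.1 CPM in C4 to C6, a gap of 38.7-fold (95% interval 32.3 to 46.8). STMN2, a microtubule regulator, reached 1808, 2011 and 1749 CPM in C1 to C3 and 56.0, 77.7 and 86.3 CPM in C4 to C6, a gap of 20.3-fold (95% interval 17.4 to 23.8). Both sets expressed these 2 genes and did not overlap, as in 31.7% of all genes tested toward C1 to C3.

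Several genes of the widest gaps toward C1 to C3 belong to none of those groups. SHISA8, of a family of AMPA receptor partners, stood at 118, 149 and 123 CPM in C1 to C3, with no count in C4 to C6, a gap of at least 78.2-fold. DISP2, of the dispatched family, had a gap of 69.9-fold (95% interval 27.0 to 258), TMEM178A of 54.6-fold (95% interval 26.3 to 136), IGSF21, an adhesion protein of inhibitory synapses, of 55.2-fold (95% interval 25.1 to 151), and CABP1, a neuronal calcium sensor, of 41.3-fold (95% interval 17.5 to 128). PENK, the enkephalin precursor, stood at 88.3, 90.7 and 114 CPM in C1 to C3 and 2.19, 0.827 and 1.51 CPM in C4 to C6, a gap of 40.4-fold (95% interval 17.0 to 126). UNC45B, a chaperone of myosin known from muscle, stood at 302, 113 and 78.7 CPM in C1 to C3 and 0.438, 0 and 0.505 CPM in C4 to C6, with C1 well above C2 and C3. Of 7 tested receptors of pituitary-directed hormones 2 were higher in C1 to C3, 2 in C4 to C6 and 3 in neither. Of all genes tested, 12.9% were higher in C1 to C3 and 9.36% in C4 to C6. CRHR1, the receptor that corticotropin-releasing hormone acts on, reached 51.0, 45.0 and 29.9 CPM in C1 to C3 and 3.50, 2.89 and 2.02 CPM in C4 to C6, a gap of 8.54-fold (95% interval 4.13 to 20.5). SSTR2, a somatostatin receptor, was measured at 6.00, 13.2 and 7.95 CPM in C1 to C3 and 0.875, 0.413 and 1.01 CPM in C4 to C6, a gap of 5.95-fold (95% interval 1.37 to 53.9). The 2 receptors that went the other way, GNRHR and GHRHR, are given below.

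**Figure D3:**
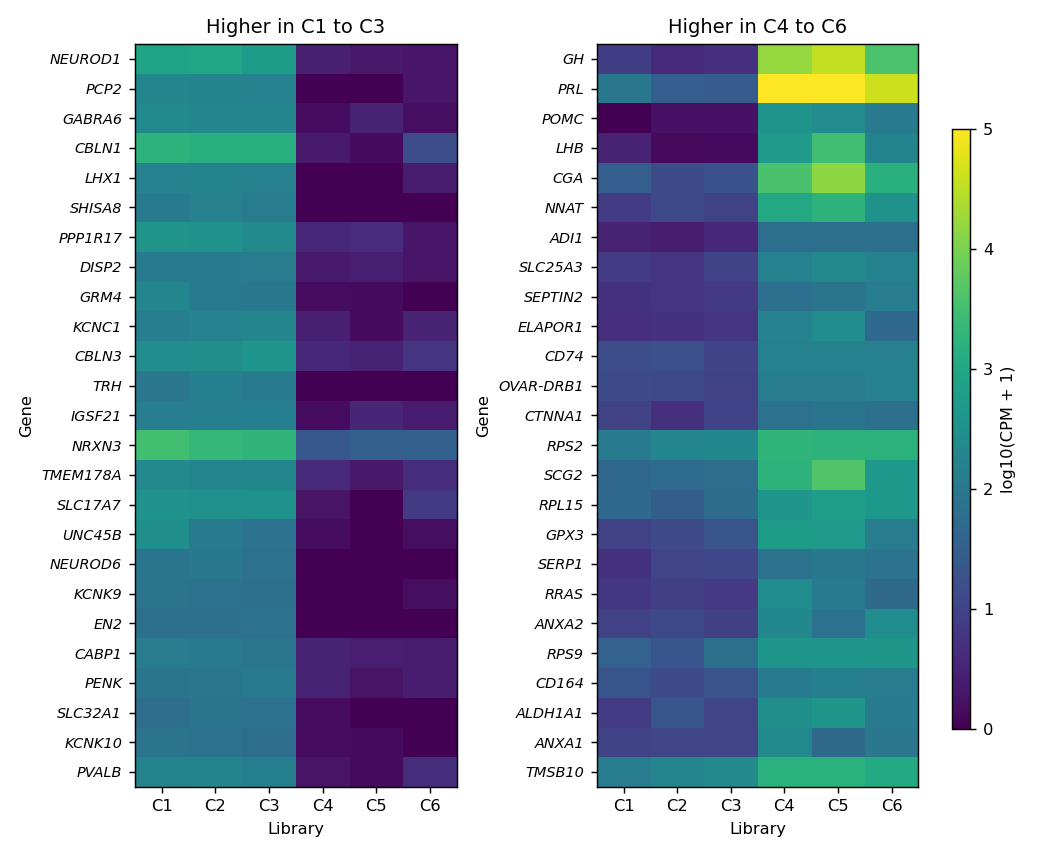
Colour gives log10(CPM + 1) of the 25 genes with the widest gap in each direction (rows), among called genes with at least 50 CPM in every library of the higher set, in the 6 libraries (columns). The left panel is bright in C1 to C3, led by NEUROD1, and the right panel in C4 to C6, led by GH and PRL.

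Toward C4 to C6, all 7 hormone genes were higher, including the 4 that the choice of sets did not use. Their list was written with earlier results of these data known. POMC, the precursor of corticotropin, stood at 394, 254 and 112 CPM in C4 to C6 and had at most 2 counts in any of C1 to C3, a gap of 148-fold (95% interval 40.5 to 1229.9). LHB, the beta subunit of luteinizing hormone, stood at 516, 2920.0 and 177 CPM in C4 to C6 and at no more than 2.14 CPM in C1 to C3, a gap of 82.4-fold (95% interval 35.0 to 255). FSHB and TSHB, the beta subunits of follicle-stimulating hormone and thyrotropin, had gaps of 81.2-fold (95% interval 14.1 to 3253) and at least 5.78-fold, the latter a lower bound because TSHB had no count in C1 to C3. C5 was the highest library for 6 of the 7 genes and C4 for POMC. Of the pituitary lineage factors 8 of 11 tested were higher in C4 to C6 and none in C1 to C3, a count that was 9 under each other scaling. SIX6, a homeodomain factor of the pituitary and hypothalamus, stood at 153, 250.0 and 32.3 CPM in C4 to C6, with no count in C1 to C3, a gap of at least 25.1-fold, the widest of the list. EYA1, a partner of the sine oculis factors, stood at 11.8, 24.0 and 10.6 CPM in C4 to C6 and 0, 1.10 and 0.757 CPM in C1 to C3, a gap of 9.65-fold (95% interval 2.88 to 50.5). GATA2, a factor of gonadotrophs and thyrotrophs, stood at 23.6, 23.6 and 7.57 CPM in C4 to C6 and 5.15, 6.22 and 4.16 CPM in C1 to C3 and did not separate the sets, since C6 came near to C2.

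Genes of hormone release and of hormone storage were less uniform. GNRHR and GHRHR, receptors of gonadotropin-releasing and growth hormone-releasing hormone, were the 2 of 7 tested receptors higher in C4 to C6, with gaps of 3.31-fold (95% interval 1.09 to 11.99) and 8.24-fold (95% interval 1.06 to 371), the second named after its values were seen. DRD2, the dopamine receptor through which prolactin release is held down, stood at 171, 190.1 and 34.3 CPM in C4 to C6 and 25.3, 23.8 and 22.7 CPM in C1 to C3, a gap of 1.36-fold. With C6 left out, 5 of the 7 receptors were higher in C4 and C5, against 1203 of all 10133 genes tested. In TPM 4 were higher in C4 to C6, against 2361 of all 10133. Granins and granule cargo gave 3 of 10 higher in C4 to C6 and none in C1 to C3. SCG2, a granin, stood at 1684, 4408 and 453 CPM in C4 to C6 and 48.5, 53.8 and 60.9 CPM in C1 to C3, a gap of 7.43-fold (95% interval 6.28 to 8.84). CHGA, chromogranin A, stood at 160.2, 250.0 and 45.9 CPM in C4 to C6 and 5.15, 10.98 and 12.9 CPM in C1 to C3, a gap of 3.57-fold (95% interval 2.38 to 5.46). CPE, the carboxypeptidase that trims prohormones, ran the other way, at 467, 632 and 597 CPM in C1 to C3 and 258, 185 and 220.0 CPM in C4 to C6, short of the threshold at 1.81-fold. Without C6, or in TPM, the count was 5 of 10, against 1203 and 2361 of all 10133 genes tested.

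The other wide gaps toward C4 to C6 were in genes with varied roles. NNAT, the small membrane protein neuronatin, stood at 1063, 1733 and 349.7 CPM in C4 to C6 and 6.86, 11.7 and 8.70 CPM in C1 to C3, a gap of 29.9-fold (95% interval 20.96 to 44.0), and C6 was again the lowest of its set. ADI1, an enzyme of methionine salvage, stood at 62.6, 62.8 and 70.6 CPM in C4 to C6 and 2.14, 1.46 and 2.65 CPM in C1 to C3, a gap of 23.6-fold (95% interval 11.2 to 59.8). SLC25A3, the phosphate carrier of mitochondria, stood at 149, 224 and 160.5 CPM in C4 to C6 and 6.86, 4.76 and 9.46 CPM in C1 to C3, a gap of 15.8-fold (95% interval 10.5 to 24.7). Unlike the hormone genes, ADI1 and SLC25A3 were at like levels in C4, C5 and C6. SEPTIN2, a cytoskeletal GTPase, had a gap of 10.8-fold (95% interval 6.46 to 19.5), ELAPOR1 of 9.53-fold (95% interval 5.42 to 18.1), and CTNNA1, an alpha-catenin of cell junctions, of 7.56-fold (95% interval 4.87 to 12.2). GPX3, a secreted glutathione peroxidase, stood at 534, 486 and 128 CPM in C4 to C6 and 8.58, 12.8 and 18.5 CPM in C1 to C3, a gap of 6.91-fold (95% interval 5.07 to 9.59). The annexins ANXA1 and ANXA2, the small GTPase RRAS, the sialomucin CD164 and TMSB10, which binds actin monomers, had gaps between 5.06-fold and 6.39-fold.

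Epithelial and stem cell genes of the pituitary gave 4 of 10 higher in C4 to C6, 5 by TMM, by DESeq2 size factors or without the hormone genes, and 6 in TPM. KRT8, a keratin, stood at 42.5, 78.1 and 38.9 CPM in C4 to C6 and 1.72, 3.29 and 0.378 CPM in C1 to C3, a gap of 11.8-fold (95% interval 5.90 to 26.8). EPCAM, an epithelial adhesion molecule, stood at 713, 1243 and 168 CPM in C4 to C6 and 37.3, 38.1 and 45.8 CPM in C1 to C3, a gap of 3.66-fold (95% interval 2.96 to 4.54). ALDH1A1, a retinaldehyde dehydrogenase, reached 302, 438 and 109 CPM in C4 to C6 and 6.86, 20.5 and 10.2 CPM in C1 to C3, a gap of 5.32-fold (95% interval 3.95 to 7.27). S100B, a calcium-binding protein of folliculostellate cells and of glia, did not separate the sets. It stood at 3297 CPM or more in C1 to C3 and at 103, 99.6 and 9343 CPM in C4 to C6, so C6 lay above all of C1 to C3 and C4 and C5 far below.

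Genes of protein synthesis leaned toward C4 to C6. Cytosolic ribosomal protein genes gave 17 of 34 higher in C4 to C6 and none in C1 to C3. RPS2 stood at 1867, 1726 and 1621 CPM in C4 to C6 and 111, 192 and 218 CPM in C1 to C3, a gap of 7.44-fold (95% interval 6.81 to 8.14). RPL15 was measured at 398, 641 and 453 CPM in C4 to C6 and 50.6, 28.5 and 57.1 CPM in C1 to C3, a gap of 6.97-fold (95% interval 5.86 to 8.34). RPL23 did not separate the sets, at 2483, 3185 and 2752 CPM in C1 to C3 and 3313, 3115 and 2550.4 CPM in C4 to C6. The count was 22 by TMM, 23 by DESeq2 size factors, 20 without the hormone genes and 27 in TPM, so it is a lower count by CPM than on any other scale tried, while the median of all genes moved the same way. Ribosomal protein genes have near-identical copies, so the count of any 1 of them is uncertain. Translation factors gave 6 of 13 higher in C4 to C6, or 10 in TPM, and 1 in C1 to C3, and the pair EEF1A1 and EEF1A2 split. EEF1A1, the widely expressed form of the elongation factor, stood at 6339, 6014 and 7716 CPM in C4 to C6 and 1006, 1206 and 1483 CPM in C1 to C3, a gap of 4.06-fold (95% interval 3.92 to 4.203). EEF1A2, the form of neurons and muscle, stood at 30.0, 28.5 and 29.1 CPM in C1 to C3 and 2.63, 2.48 and 1.51 CPM in C4 to C6, a gap of 10.9-fold (95% interval 4.77 to 30.5) in the other direction.

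Genes of the endoplasmic reticulum gave 8 of 30 higher in C4 to C6, where 9.36% of all genes tested were, and none in C1 to C3. SSR4, a subunit of the translocon-associated complex, stood at 187, 442 and 196 CPM in C4 to C6 and 37.7, 31.8 and 34.8 CPM in C1 to C3, a gap of 4.95-fold (95% interval 3.93 to 6.30). DNAJC3, a co-chaperone, stood at 44.6, 61.6 and 57.5 CPM in C4 to C6 and 11.1, 10.98 and 16.6 CPM in C1 to C3, a gap of 2.68-fold (95% interval 1.87 to 3.91). SERP1, a small protein of the same compartment, stood at 72.7, 102 and 79.7 CPM in C4 to C6 and 4.29, 9.88 and 10.6 CPM in C1 to C3, a gap of 6.86-fold (95% interval 4.58 to 10.6). The 2 genes of this list with the highest median, HSP90B1 and HSPA5, had no overlap between sets but gaps of only 1.51-fold and 1.16-fold. Of all genes tested, 31.7% did not overlap toward C1 to C3 and 27.8% toward C4 to C6. The count was 13 by TMM and by DESeq2 size factors, 11 without the hormone genes, 22 in TPM, and 15 with C3 or C6 left out, so it depends on the scale. Of all 10133 genes tested, 1224 were higher in C4 to C6 with C3 left out. With C6 left out 1203 were higher in C4 and C5. Of the 12 tested heat shock genes none separated the sets by CPM, 2 were higher in C4 to C6 by TMM, by DESeq2 size factors or without the hormone genes, and 4 in TPM. In TPM 2361 of all 10133 genes tested were higher in C4 to C6.

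Immune genes were higher in C4 to C6 in part. Interferon response genes gave 8 of 11 higher in C4 to C6. IFI44L, an interferon-induced gene, reached 33.7, 9.92 and 10.1 CPM in C4 to C6 and 0.858, 0.732 and 1.14 CPM in C1 to C3, a gap of 8.74-fold (95% interval 2.65 to 45.3). MX1, an antiviral GTPase, stood at 159, 96.7 and 25.7 CPM in C4 to C6 and 6.43, 11.3 and 5.68 CPM in C1 to C3, a gap of 2.27-fold (95% interval 1.42 to 3.67), with C4 the highest library. Macrophage and microglia genes gave 4 of 12 by CPM, 5 by TMM, 6 by DESeq2 size factors or without the hormone genes and 9 in TPM. CD74, the invariant chain of class II histocompatibility molecules, stood at levels from 147 to 159.9 CPM in C4 to C6 and from 9.84 to 15.7 CPM in C1 to C3, a gap of 9.35-fold (95% interval 6.79 to 13.2). OVAR-DRB1, a class II beta chain of sheep, stood at 128, 128 and 160.0 CPM in C4 to C6 and 13.7, 11.7 and 8.70 CPM in C1 to C3, a gap of 9.31-fold (95% interval 6.45 to 13.9), close to that of CD74. C1QC, a complement chain made by macrophages, stood at 36.3, 59.5 and 14.1 CPM in C4 to C6 and 3.86, 2.93 and 4.16 CPM in C1 to C3, a gap of 3.39-fold (95% interval 1.64 to 7.56). CTSS, a lysosomal protease, was higher in all 3 libraries of C4 to C6 but by 1.76-fold. In that direction 27.8% of all genes tested did not overlap. The summed macrophage and microglia genes stood at 232, 279 and 208 CPM in C1 to C3 and at 609, 672 and 1233 CPM in C4 to C6. Their part in the other immune results was not tested.

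**Figure D4:**
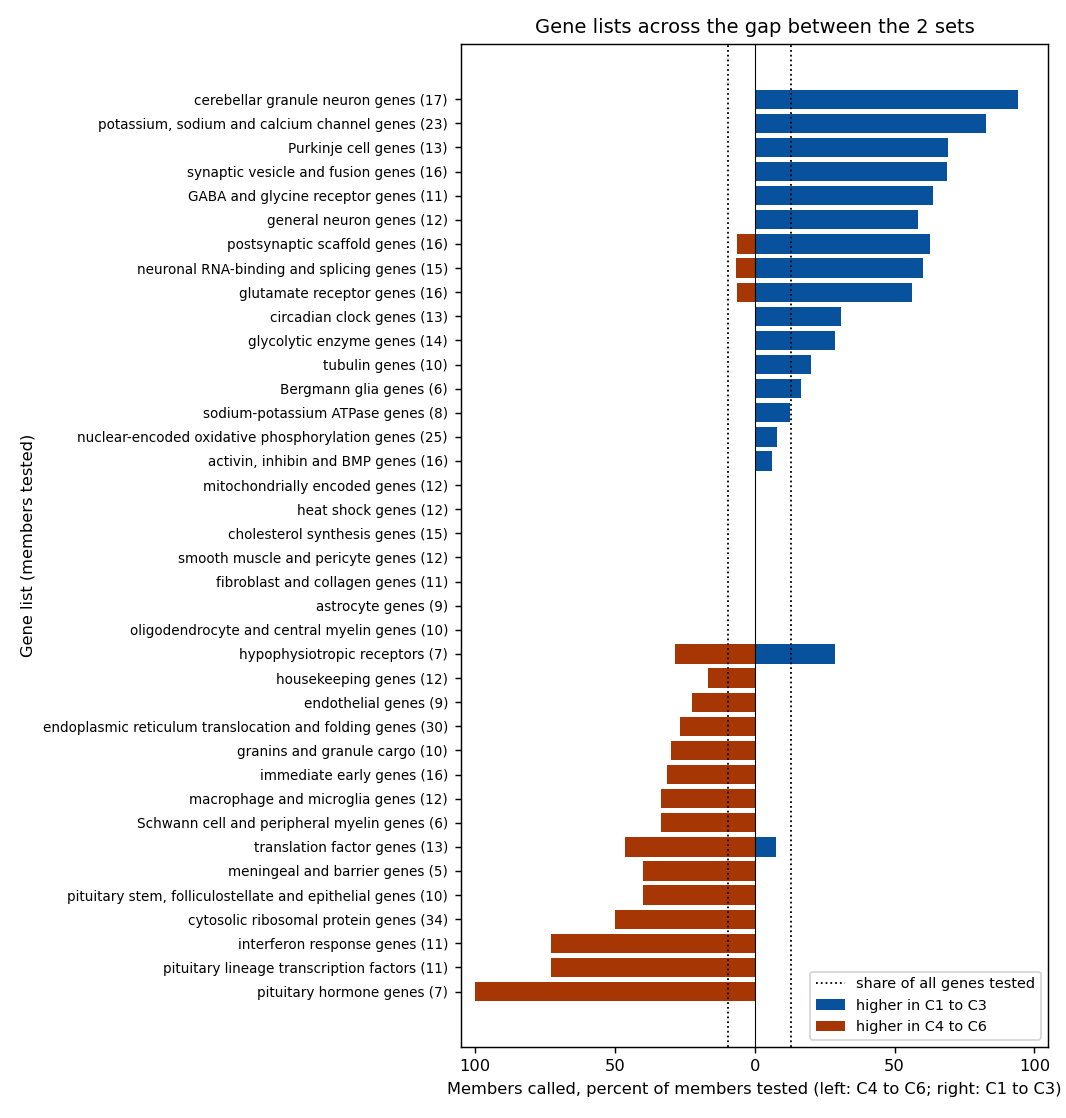
Share of the tested members of each gene list drawn (rows, number tested in brackets) that were higher in C4 to C6 (bars to the left) or in C1 to C3 (bars to the right), with dotted lines at the shares of all genes tested, 9.36% and 12.9%. Lists with the fewest tested members are not drawn. Neuronal lists extend to the right, led by the granule neuron genes, and hormone, lineage factor, interferon and ribosomal lists to the left.

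Immediate early genes, which cells switch on within minutes of a stimulus, were in sum highest in C4. Of 16 tested members 5 were higher in C4 to C6, where 9.36% of all genes tested were, and none in C1 to C3. With C5 left out 8 were higher in C4 and C6, against 1382 of all 10133 genes tested. NR4A1, an orphan nuclear receptor induced by stimulation, stood at 106, 248 and 11.6 CPM in C4 to C6 and 1.72, 0 and 0.757 CPM in C1 to C3, a gap of 6.77-fold (95% interval 2.31 to 26.9). ZFP36, which destabilizes messenger RNA, was measured at 297, 17.8 and 55.5 CPM in C4 to C6 and 2.14, 3.66 and 3.41 CPM in C1 to C3, a gap of 4.86-fold (95% interval 2.40 to 10.8). The summed level of this list was 453, 673 and 506 CPM in C1 to C3 and 5211, 924 and 687 CPM in C4 to C6, with C4 the highest. Smooth muscle and pericyte genes summed to 235, 240.4 and 495 CPM in C1 to C3 and to 13023, 128 and 609 CPM in C4 to C6, again with C4 far above the other 5 libraries. None of the 12 tested smooth muscle genes separated the sets. TAGLN, an actin-binding protein of smooth muscle, stood at 24.9, 35.5 and 97.2 CPM in C1 to C3 and 3465, 15.7 and 143 CPM in C4 to C6. Endothelial genes gave 2 of 9 higher in C4 to C6, where 9.36% of all genes tested were. In TPM 3 were, against 2361 of all 10133 genes tested. EMCN, a sialomucin of endothelial cells, stood at 39.8, 7.03 and 13.1 CPM in C4 to C6 and 0.429, 0 and 0.757 CPM in C1 to C3, a gap of 9.28-fold (95% interval 2.20 to 82.8). KDR, a receptor of vascular endothelial growth factor, stood at 6.57, 6.20 and 22.2 CPM in C4 to C6 and 2.57, 1.46 and 2.27 CPM in C1 to C3, with an interval for the gap of 0.883 to 7.58. In C4 the smooth muscle and early response genes were high together, and the part of the first in the second was not tested.

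C6 stood apart within its set in genes of glia and myelin. Summed oligodendrocyte genes stood at 1000.0, 716 and 767 CPM in C1 to C3 and at 80.5, 25.2 and 6264 CPM in C4 to C6. C1 to C3 thus lay between C6 and the other 2 libraries of its set, and none of the 10 tested genes separated the sets. With C6 left out, all 10 were higher in C1 to C3 than in C4 and C5. So were 1820 of all 10133 genes tested, and leaving out a library can only add such genes. Without C4 or C5 instead, the median log2 ratio of the list turned from 2.39 to -2.05 or -2.07. ERMN, a cytoskeletal protein of myelin, stood at 553, 369 and 341 CPM in C1 to C3 and 1.31, 0.413 and 1486 CPM in C4 to C6. CLDN11, the tight junction protein of myelin, reached 225, 216 and 247 CPM in C1 to C3 and 64.3, 15.7 and 1019 CPM in C4 to C6. Astrocyte genes showed the same order, with 0 of 9 by all libraries and 8 of 9 without C6, on the same background. Their median turned from 2.42 to -0.62 without C4 and to -0.64 without C5. AGT, the angiotensinogen gene that astrocytes express, stood at 268, 292 and 460.1 CPM in C1 to C3 and 0.438, 0.827 and 644 CPM in C4 to C6. TUBB4A, a tubulin of neurons and oligodendrocytes, stood at 1437, 1287 and 1147 CPM in C1 to C3 and 3.06, 0 and 1123 CPM in C4 to C6, with C6 again close to C1 to C3.

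Peripheral myelin genes were high in C6 and low in C1 to C3, and barrier genes were also highest in C6. PMP22, a membrane protein of peripheral myelin, stood at 11.6, 5.49 and 8.70 CPM in C1 to C3 and 59.97, 2.89 and 1945 CPM in C4 to C6. Summed Schwann cell genes stood at 14.6, 12.4 and 13.6 CPM in C1 to C3 and 177, 27.3 and 9330.1 CPM in C4 to C6, and C6 was the highest for the list by more than 50 times. EGR2, a transcription factor of myelinating Schwann cells, and SCN7A, a sodium channel isoform, were the 2 of 6 tested members higher in C4 to C6. Of all genes tested 9.36% were. The gaps of EGR2 and SCN7A were 3.39-fold (95% interval 1.67 to 7.43) and 9.25-fold (95% interval 1.24 to 411). In TPM 3 members were higher there, against 2361 of all 10133 genes tested. With C5 left out all 6 were higher in C4 and C6, against 1382 of all 10133. PTGDS, a prostaglandin synthase of the meninges and the choroid plexus, stood at 2077 CPM or more in C1 to C3 and at 466, 27.3 and 7376 CPM in C4 to C6. TTR, the thyroxine carrier of the choroid plexus, stood apart in C3 and C6, at 105.5, 111 and 4521 CPM in C1 to C3 and 29.8, 4.55 and 7312 CPM in C4 to C6. IGF2 and DCN, genes of meningeal fibroblasts among other cells, were the 2 of 5 tested barrier genes higher in C4 to C6. Their gaps were 5.02-fold (95% interval 2.40 to 11.8) and 2.23-fold (95% interval 1.71 to 2.93). Of all genes tested 9.36% were higher there. In TPM 3 barrier genes were, against 2361 of all 10133 genes tested. Collagen and other fibroblast genes gave 0 of 11 with all libraries by CPM. With all libraries 1 was higher in C4 to C6 by TMM, by DESeq2 size factors or without the hormone genes and 3 in TPM. With C5 left out 6 of 11 were higher in C4 and C6, against 1382 of all 10133 genes tested. The part of these cell types in the differences between the sets was not tested.

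**Figure D5:**
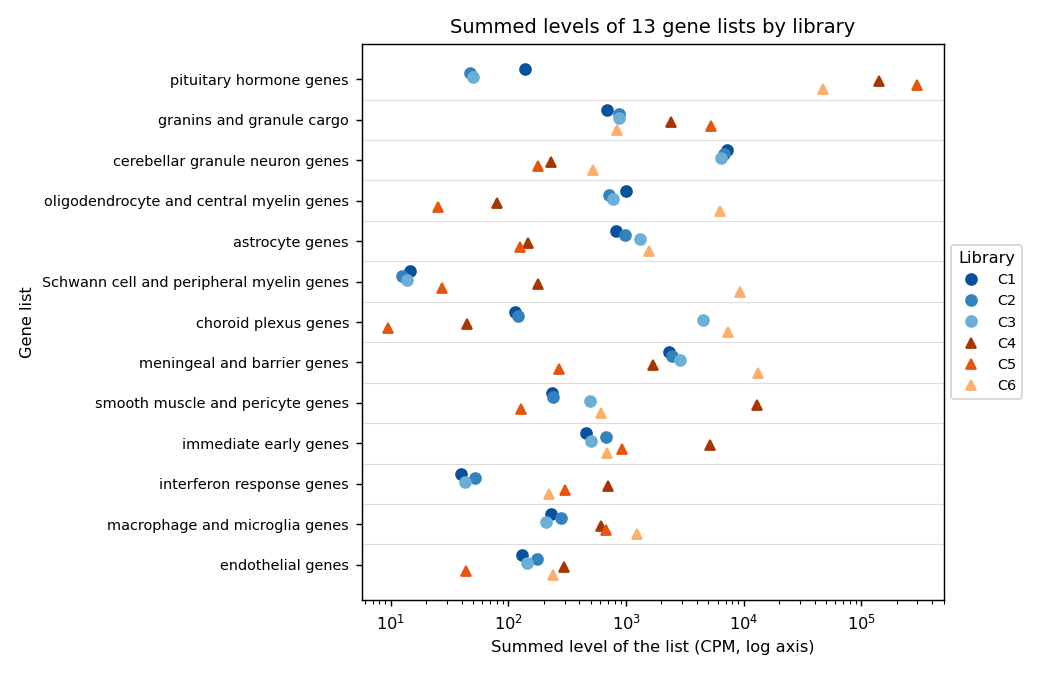
Summed CPM (log axis) of 13 gene lists (rows) in each library, with circles for C1 to C3 and triangles for C4 to C6. Hormone and granule neuron genes separate the sets in opposite directions, while oligodendrocyte, Schwann cell and barrier genes are highest in C6 and smooth muscle and immediate early genes in C4.

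Libraries also differed within each set. Within C1 to C3, 16% of the genes tested varied by at least 2 times from the lowest to the highest library, against 42.6% within C4 to C6. Of the 4319 genes that varied within C4 to C6, C6 was the highest library in 2192, C4 in 1337 and C5 in 790. With C6 left out, C4 and C5 differed by that much in 1978 genes, and with C5 left out C4 and C6 did in 2596. Of the genes higher in C1 to C3, 6.52% varied within that set, so most were at like levels in C1, C2 and C3, whereas 41.2% of the genes higher in C4 to C6 varied within theirs. Named genes at 50 CPM or more in 1 library and at least 4 times its nearest neighbour numbered 0 in C1, 0 in C2, 1 in C3, 71 in C4, 5 in C5 and 104 in C6.

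The single gene of this kind in C3 was ESPNL, related to an actin-bundling protein of hair cells, at 96.5 CPM in C3 and 8.15 CPM in the next library. In C4 the 2 widest ratios belonged to a muscle gene and a matrix gene. TPM2, a tropomyosin, stood at 1008 CPM in C4 and at no more than 19.3 CPM elsewhere, and CCN1, a matricellular protein, at 775 CPM and at no more than 14.9 CPM. In C5 the 5 genes were TSHB, FSHB, LHB, GNRHR and TENT5A, a poly(A) polymerase. TENT5A stood at 41.1, 182 and 17.7 CPM in C4 to C6, with no count in C1 to C3. The wide ratios in C6 included CLDN19, a claudin of Schwann cells, at 189 CPM, and GJC3, a connexin of myelinating cells, at 346 CPM, neither above 5.25 CPM elsewhere. SPINK5, an epithelial protease inhibitor, was counted in C6 alone, at 88.8 CPM.

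Counts of nuclear genes of energy metabolism that separated the sets were small and changed with the scale. Of 25 nuclear-encoded oxidative phosphorylation genes 2 were higher in C1 to C3, a smaller share than the 12.9% of all genes tested. ATP5F1B, a subunit of ATP synthase, was 1 of them. None were higher there by TMM, by DESeq2 size factors, without the hormone genes or in TPM. The gap of ATP5F1B by CPM was 2.31-fold (95% interval 2.19 to 2.44). Mitochondrially encoded genes separated the sets in 0 of 12, with C6 above C4 and C5 in each named member, and in 5 of 12 without C6. Without C6, 1820 of all 10133 genes tested were higher in C1 to C3 and 1203 in C4 and C5. ATP6 stood at 4671, 5912 and 4268 CPM in C1 to C3 and 1262, 598 and 2812 CPM in C4 to C6. ND3 was measured at 2263, 2408 and 1517 CPM in C1 to C3 and 476, 249.6 and 992 CPM in C4 to C6. ATP6 overlaps ATP8, so these 2 may share reads. Glycolytic enzymes gave 4 of 14 higher in C1 to C3, where 12.9% of all genes tested were, and 3 by each scaling other than TPM. Among the 4 were ENO2 and ALDOC, which also stood in the general neuron and Purkinje cell lists. In TPM the count of glycolytic genes was 1, with 2 in the other direction. Circadian clock genes gave 4 of 13 higher in C1 to C3, where 12.9% of all genes tested were. Among them were CRY2, a repressor of the clock, with a gap of 6.04-fold (95% interval 5.19 to 7.05), and NR1D2, a nuclear receptor of the clock, with a gap of 4.69-fold (95% interval 2.07 to 12.5). By TMM, by DESeq2 size factors and without the hormone genes 3 clock genes were higher in C1 to C3 and 1 in C4 to C6, and in TPM 2 and 1. Cholesterol synthesis genes gave 0 of 15, 1 was higher in C4 to C6 by TMM, by DESeq2 size factors or without the hormone genes, and 7 were higher in C4 to C6 in TPM. In TPM 2361 of all 10133 genes tested were higher there. IDI1, an isomerase of that pathway, stood at 46.0, 55.4 and 116 CPM in C4 to C6 and 24.0, 22.3 and 19.3 CPM in C1 to C3 and missed the threshold at 1.91-fold. Of the activin, inhibin and BMP genes 1 of 16 was higher in C1 to C3. In C4 to C6 1 was higher by DESeq2 size factors or without the hormone genes and 2 in TPM. Each is a smaller share than that of all genes tested on the same scale. The gene higher in C1 to C3 was SMAD3, which carries activin signals to the nucleus, at 33.4, 26.0 and 19.7 CPM in C1 to C3 and 5.25, 4.13 and 5.05 CPM in C4 to C6, a gap of 3.75-fold (95% interval 1.97 to 7.71).

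Some genes held one level across all 6 libraries. Of the genes tested, 1839 (18.1%) stayed within 2 times from the lowest to the highest library, and they made up 15.4% (C5) to 17.3% (C3) of a library's counts. Among genes with a median of at least 100 CPM the narrowest range was that of ZMAT2, a splicing protein, at 169.8, 188 and 188 CPM in C1 to C3 and 183, 174 and 169 CPM in C4 to C6. PSMA4, a proteasome subunit, UBE2B and UBE2D3, ubiquitin-conjugating enzymes, and ACTR2, a subunit of the actin-nucleating complex, followed. UBE2D3 stood at 101, 97.3 and 94.6 CPM in C1 to C3 and 107, 112 and 111 CPM in C4 to C6 and ACTR2 at 321, 353 and 363 CPM in C1 to C3 and 356, 348 and 388 CPM in C4 to C6, so the sets overlapped or nearly touched in these genes. Common reference genes, unlike those above, were not picked for a narrow range. Of 12 tested housekeeping genes 2 stayed within 2 times over the 6 libraries, a share close to the 18.1% of all genes tested. B2M, the light chain of class I histocompatibility molecules, and RPLP0, a ribosomal protein, were the 2 higher in C4 to C6, where 9.36% of all genes tested were. In TPM 3 of the 12 were, against 2361 of all 10133 genes tested. B2M stood at 1652, 841 and 719 CPM in C4 to C6 and 170.2, 258 and 282 CPM in C1 to C3, a gap of 2.55-fold (95% interval 2.33 to 2.79). RPLP0 reached 1962, 2186 and 2004 CPM in C4 to C6 and 446, 793 and 809 CPM in C1 to C3, a gap of 2.42-fold (95% interval 2.30 to 2.55). GAPDH stood at 1753, 1674 and 1857 CPM in C1 to C3 and 867, 1005 and 1592 CPM in C4 to C6 and did not separate the sets.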

How the data were processed

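RNA labelled as pituitary from 6 sheep libraries was measured with the nanopore kits SQK-PCS109 and SQK-PBK004, per the labels' protocols, and no molecular identifiers are named. Reads were aligned with minimap2 2.17-r941, per the submitters' processing notes, and for the quantifier, genome build, annotation and filters the tools and versions were not given in the sources used here. The estimated counts per gene that the authors deposited are not normalized. Values that were not whole, 24.0 to 29.8% per library, were rounded. The TPM values that the authors deposited served as an alternative scale only. Of 26071 rows, 4 rows of annotation text were left out. Of 21457 named features, 20345 matched a symbol of the RefSeq gene table of ARS-UI_Ramb_v3.0, from which only names were taken.

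Totals ran from 1981644 to 2732911 counts. Rounded counts were divided by the library total to give CPM. A named gene was tested for separation of the sets when its summed count was at least 60. The gap ratio was the lowest CPM of the higher set over the highest CPM of the lower set, called at 2, with counts under 3 in the lower set taken as 3. Where the lower set was at 0 in each library, the printed ratio was taken against 3 counts per library and is a lower bound. Other ratios carry 95% exact conditional (Clopper-Pearson) intervals, which cover counting error only and not the spread between animals. The middle-library log2 ratio used the median CPM plus 1 of each set. The labels put no library in a group, and the sets follow measured hormone levels, so no p-value was computed.

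The sets, their marker genes and the 45 gene lists were chosen with earlier results of these data known. Genes were named by rule: the 6 markers, the 25 non-LOC genes per direction with the widest gap and at least 50 CPM in every library of the higher set, 2 genes per list by median CPM and 2 by gap, 10 genes of at least 100 CPM with the narrowest range, 8 genes per library with the largest ratio to the next library, and the 10 of highest median CPM per set. The text gives a selection of these, some are not reported here, and a few genes outside the rule are said to have been named after their values were seen. Other count minimums, thresholds and floors, thinning to the smallest library, TMM factors (edgeR 4.0.16), DESeq2 1.42.0 size factors, totals without the hormone genes, the authors' TPM and leaving out each library were tried. The calculation was tested on simulated data. Python 3.11.15, numpy 2.4.6, pandas 2.3.3, scipy 1.17.1, matplotlib 3.10.9 and R 4.3.3 were used.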

Additional observations from a re-analysis of the deposited data

Results flagged for a closer look

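In 8 of the 40 gene lists with at least 3 tested members, 1 library stood far above the other 5 in summed CPM, with a gap to the next library, as a share of the whole range, beyond the 95% critical value of Dixon's test for 6 samples. Chance flags about 1 in 20 groups when the groups are independent and the 6 values come from 1 normal sample. Neither holds here. The lists share the same libraries and some genes, and they were written with earlier results of these data known. Each also spans 2 sets chosen to differ. The number of flagged lists therefore cannot be set against that rate. C6 was that library in 5 lists. It reached 9330 CPM in Schwann cell and peripheral myelin genes, where the next library held 177 CPM, and 6260 CPM in oligodendrocyte and central myelin genes, where the next held 1000 CPM. It reached 13200 CPM in meningeal and barrier genes against 2880 CPM, 7380 CPM in fibroblast and collagen genes against 2640 CPM, and 1010 CPM in cholesterol synthesis genes against 361 CPM. C4 was that library in 2 lists, with 13000 CPM in smooth muscle and pericyte genes against 609 CPM and 5210 CPM in immediate early genes against 924 CPM. C5 held 5290 CPM in granins and granule cargo, and the next library held 2390 CPM. No cause was tested.

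Features without a gene name were outside the comparisons. Of 3115 such features with at least 60 counts, 1168 (37.5%) were higher in C1 to C3 by a gap of 2 or more and 80 (2.57%) were higher in C4 to C6. Unnamed features took 19.3 to 20.1% of the counts of C1 to C3 and 9.94 to 14.7% of those of C4 to C6.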

How the results depend on the processing

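No paired analysis was possible because the labels give the libraries no groups and no test was made. No alternative turned the direction of a named gene that separated the sets, but most alternatives could not. A direction counted as turned only where the sets separated in full the other way. Other minimums, thresholds, floors and left-out libraries cannot do that to a gap of 2. The scale factors, such as 0.812 to 1.12 for TMM, were too close together to do it. The authors' TPM and thinning were the settings that could. The balance of the counts did turn, from 1303 genes higher in C1 to C3 and 948 in C4 to C6 to 1065 and 1266 by TMM, 1012 and 1342 by DESeq2 size factors and 1049 and 1285 without the hormone genes, as it did in TPM. Of the 131 named genes that separated the sets by CPM, 4 fell under the threshold by TMM, 6 by DESeq2 size factors, 4 without the hormone genes, 15 in TPM and 31 at a threshold of 4. The number of genes higher in C4 to C6 was 466 at a minimum of 200 counts, 1532 at a threshold of 1.5, 265 at 4 and 2361 in TPM. The number higher in C1 to C3 was 512 at 4 and 795 in TPM. In TPM 693 of the 1303 genes higher in C1 to C3 remained, and 926 of the 948 higher in C4 to C6. Genes within the threshold over all 6 libraries numbered 413 at 1.5, 5325 at 4 and 887 in TPM. Genes varying within C1 to C3 numbered 573 at 200 counts, 4132 at 1.5 and 193 at 4, and within C4 to C6 2586, 6840 and 1777. Members of the lists higher in C4 to C6 numbered 32 at 4 and 155 in TPM, against 83, and in C1 to C3 88 in TPM against 117. Leaving out a library can by construction only add separated genes. Without each library in turn, 1355 to 1820 genes were higher in C1 to C3, 1038 to 1382 in C4 to C6, and 2055 to 2563 were within 2 times. List members numbered 119 to 169 and 88 to 113, and genes varying numbered 654 to 977 within C1 to C3 and 1978 to 3313 within C4 to C6. Among list medians, the sign for oligodendrocyte genes turned from 2.39 to -2.05 without C4 and to -2.07 without C5, for astrocyte genes from 2.42 to -0.62 and -0.64, and for choroid plexus genes from 1.78 to -3.49 and -3.56. The median turned in TPM for oxidative phosphorylation genes, from 0.27 to -0.61, for glycolytic genes, from 0.70 to -0.48, for mitochondrially encoded genes, from 0.90 to -0.14 (-0.01 without C5), and for activin, inhibin and BMP genes, from 0.18 to -0.16 (-0.03 by DESeq2 size factors, -0.05 without the hormone genes). At a minimum of 200 counts it turned for endothelial genes, from -1.21 to 0.44, and cholesterol synthesis genes, from -0.91 to 0.24, and without C6 for housekeeping genes, from -0.15 to 0.01. The causes were not tested. Genes at a few counts in the lower set, such as KCNK9 or GRM4, have ratios that depth limits, and 11324 named genes were too low to be compared.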
